A study of Solanum lycopersicum with 30 samples.

Results

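The leaf response of resistant tomato to tobacco mosaic virus (TMV) at 27 h was described from 4 of the 30 arrays of the series. They were chosen by their titles, which give the resistant genotype N, the contrast of mock and TMV, the time of 27 h and the replicate numbers 1 to 4. Each array carried RNA from a leaf sample treated with TMV sap, labelled with the green dye Cy3, and RNA from a leaf sample treated with mock leaf sap, labelled with the red dye Cy5. The plants were Solanum lycopersicum of the N genotype, grown for 28 to 35 days in a chamber held at 25 °C under 16 h light and 8 h dark. A sample was the leaf tissue of 1 plant, of which 25 µg of total RNA was labelled. The submitters' text speaks of 3 repeats of the experiment, whereas the resistant groups hold 4 arrays each. The groups set beside it were sun1-1 at 27 h (3 arrays), an N plant mutated towards greater susceptibility, susceptible n plants at 27 h (3 arrays), and resistant plants at 3 h and 9 h (4 arrays each). Resistant and sun1-1 plants carry N, and the labels give no promoter, line number or origin for it. The N gene and the sun1-1 mutation could not be checked on the arrays, because no clone with either name is annotated. For replicate 4 the protocol of the TMV channel names 9 h, while its title and its mock channel name 27 h. It was kept at 27 h by its title, and the tests were repeated without it.

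N is a resistance gene first isolated from tobacco. Its product is an intracellular immune receptor of the TIR class of nucleotide-binding, leucine-rich repeat proteins, and it recognises the helicase part of the TMV replicase. Recognition is known to set off the hypersensitive response, in which cells at the infection site die, reactive oxygen and salicylic acid build up, and pathogenesis-related proteins accumulate, while the virus stays near the site of entry. A plant without the gene lets TMV move from cell to cell and through the whole plant.

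The measurement for a clone is the log2 ratio between both dyes on an array, as the authors deposited it. The labels do not say which channel is the numerator, although the titles name mock before TMV, and every array had the dyes the same way round. The deposited sign is kept throughout. Positive means more signal in the numerator channel, whichever treatment that is, and no result is read as an increase or a decrease after TMV. A dye effect of a clone is part of a ratio tested against 0 and cancels in a difference between groups if it is constant. A ratio holds no level of expression, so the leaf origin of the RNA could not be checked against leaf markers. Each clone was spotted in duplicate, and 815 of 15360 clones carry a single gene symbol, 430 symbols in all. No clone sequence is shown because none came with the data.

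The 4 arrays differed in coverage and spread. Replicate 1 gave values for 8565 clones, replicate 2 for 6621, replicate 3 for 3465 and replicate 4 for 5255. The SD of the log2 ratio over clones was 0.38, 0.56, 0.28 and 0.36 on replicates 1 to 4. At least a 2-fold difference between the channels was seen in 1.66%, 7.25%, 0.317% and 1.20% of the clones. Replicate 2 thus held 480 such clones and replicate 3 held 11. Over the other 26 arrays the median share was 1.63% (0.23% to 40.1%), and the median SD of the log2 ratio was 0.36. Duplicate spots of a clone correlated on each array, at r = 0.845, 0.917, 0.728 and 0.780 across clones. Clones that share a symbol also had like values within an array, at r = 0.740, 0.582, 0.540 and 0.524 over 523 to 662 pairs of clones. Of the 15360 clones, 3051 had a value on all 4 arrays, 2044 on 3, 1732 on 2 and 2106 on 1, while 6427 had none. The 6827 clones with at least 2 values were tested.

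The 4 arrays did not give the same pattern. Across clones, replicates 1 and 2 correlated at r = -0.388 over 6335 clones, and replicates 1 and 4 at -0.205 over 5059. Replicates 2 and 4 correlated at 0.473 over 4983 clones. Replicate 3 correlated at 0.0564 with replicate 1, at 0.241 with replicate 2 and at 0.263 with replicate 4. Replicate 1 therefore stood against replicates 2 and 4, and replicate 3 leaned weakly to replicates 2 and 4. The clones of an array share its dyes and its leaf pair, so these correlations are descriptions and carry no p. The opposition of replicates 1 and 2 was as marked over clones measured on both spots (r = -0.411) and over the 357 genes with a symbol measured on both arrays (r = -0.503). Among the 435 pairs of arrays in the series, 20 had a correlation below -0.3, and 45 had one above 0.3. Because all 4 arrays are labelled alike, the sign of replicate 1 relative to the others is not settled by the values. Results are given as deposited. The counts of the tests against 0 are also given with the sign of replicate 1 turned and without replicate 1. For many genes the mean is given in 1 or both of these ways. A mean given only as deposited may still depend on replicate 1.

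**Figure D1:**
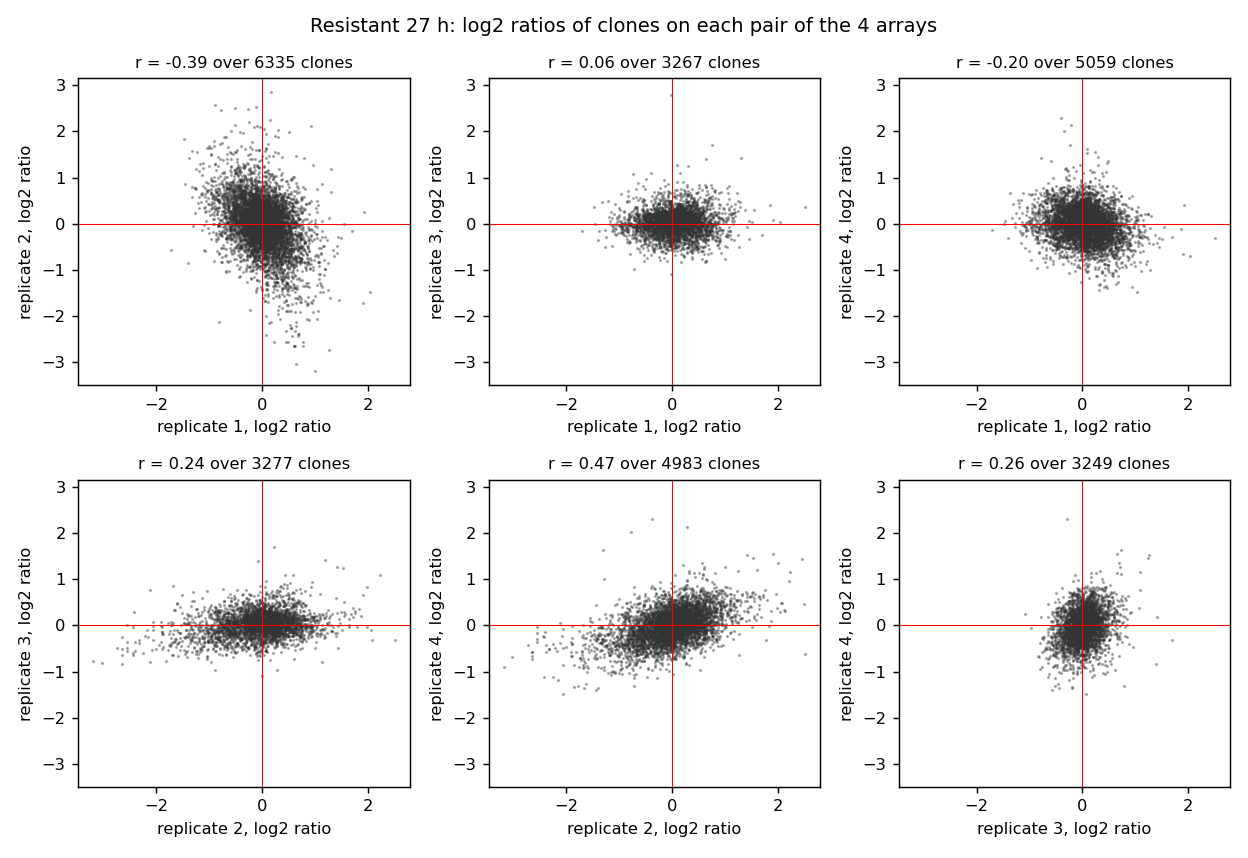
Log2 ratios of clones on each pair of the 4 resistant 27 h arrays. Each point is a clone, both axes are deposited log2 ratios, and red lines mark 0. The cloud for replicates 1 and 2 slopes down (r = -0.39) and that for replicates 2 and 4 slopes up (r = 0.47).

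Replicates 1 and 3 correlated best with arrays of other groups, and replicates 2 and 4 with each other. The highest values of replicate 1 were 0.457 with sun1-1 27 h replicate 1 and 0.435 with susceptible 3 h replicate 1. Its lowest was -0.402 with resistant 9 h replicate 1. Replicate 2 correlated at 0.438 with that same resistant 9 h array, and its lowest value was -0.415. Replicate 3 reached 0.362 with sun1-1 27 h replicate 1 and with sun1-1 27 h replicate 3, against at most 0.263 within the group. The mean correlation among the 4 arrays was 0.0734 over 6 pairs, against 0.130 with the sun1-1 27 h arrays (12 pairs), 0.00599 with the susceptible 27 h arrays (12 pairs), 0.120 with the resistant 3 h arrays (16 pairs) and -0.00838 with the resistant 9 h arrays (16 pairs). Arrays of the group were thus no more alike, on average, than they were to sun1-1 arrays of the same time or to resistant arrays at 3 h. The mean within the group was 0.326 without replicate 1 and 0.252 with its sign turned. Replicate 4, the array with 9 h in its TMV protocol, correlated at 0.177 on average with the other 27 h arrays (-0.205 to 0.473) and at -0.0229 with the resistant 9 h arrays (-0.230 to 0.279). These ranges overlap and do not settle its time.

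Few clones kept a sign over the 4 arrays. Of the 3051 clones with values on all 4, 280 (9.18%) were positive throughout and 164 (5.38%) negative throughout. In 778 (25.5%) only replicate 1 had the opposite sign, against 378 (12.4%) for replicate 2, 230 (7.54%) for replicate 3 and 202 (6.62%) for replicate 4. A further 972 (31.9%) had 2 arrays of each sign, and 47 held a 0. If the sign of replicate 1 is turned, those 778 clones become the ones of a single sign. The 250 genes with a symbol on all 4 arrays were split in much the same shares, with 23 (9.2%) positive throughout, 11 (4.4%) negative throughout and 58 (23.2%) opposed by replicate 1 alone.

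**Figure D2:**
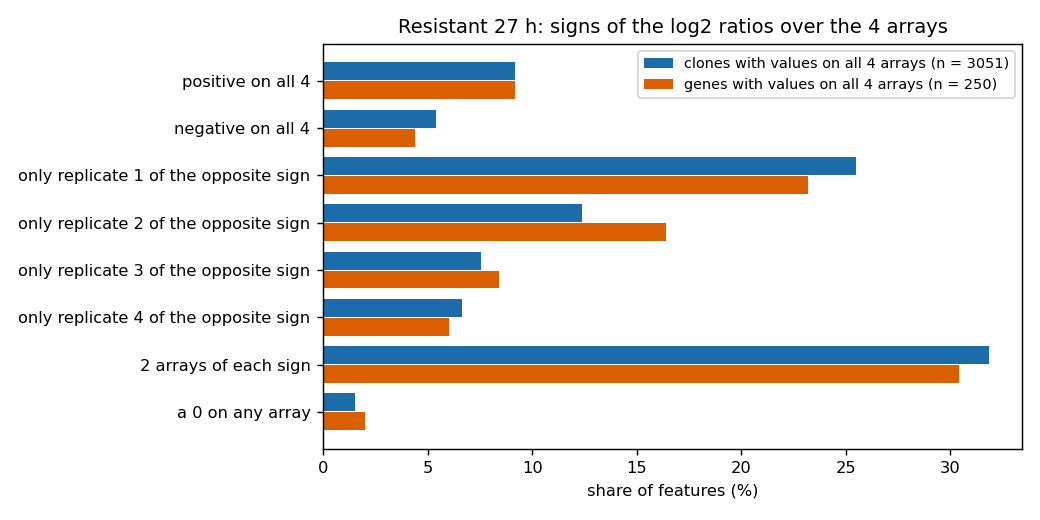
Share of features with each pattern of signs over the 4 resistant 27 h arrays, in percent, for 3051 clones (blue) and 250 genes with a symbol (orange). The pattern in which only replicate 1 is opposed takes 25.5% of clones and 23.2% of genes.

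The first comparison asked which transcripts differed between TMV and mock leaves of resistant plants at 27 h. No clone and no named gene passed the test. With limma and Benjamini-Hochberg adjustment at 0.05, 0 of 6827 clones (0%) were called, and 395 (5.79%) had an unadjusted p under 0.05, with a lowest adjusted p of 0.843. Over the clones with a symbol averaged by gene, 0 of 368 genes (0%) were called, 18 (4.89%) were under 0.05 before adjustment, and no adjusted p lay below 0.476. The median SE of a gene was 0.20 on the log2 scale, and the median SD over the 4 arrays was 0.29. The counts at the unadjusted level turned on single arrays. Without replicate 2 they were 139 of 5341 clones and 5 of 327 genes, and without replicate 1 they were 638 of 5181 clones and 38 of 323 genes. With the sign of replicate 1 turned they were 893 clones and 54 genes. The adjusted test called 0 clones and 0 genes in each of these cases.

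The genes nearest to the threshold are described next by their values on the 4 arrays, in the order of replicates 1 to 4. LOC102577835 had log2 ratios of 0.19, 1.47, 1.26 and 1.49, a mean of 1.10 ± 0.62 (SD, n = 4; SE 0.32; limma adjusted p = 0.476). It was positive on each array, high on 3 and near 0 on replicate 1, and it was the only gene of the 368 whose mean reached 2-fold. Its 2 clones had like means of 1.08 and 1.13. It was also positive on 20 of the other 26 arrays, with a mean of 0.63 there, and the difference between resistant 27 h and the mean of the 8 other groups was 0.47 (SE 0.34; limma adjusted p = 0.962). At 27 h its means were as high in sun1-1 leaves (1.11) and nearly so in susceptible leaves (0.92). The difference between resistant and sun1-1 leaves was -0.0043 (SE 0.48; limma adjusted p = 0.996). Its resistant 27 h mean without replicate 1 was 1.41, and with the sign of that array turned it was 1.01. This gene was the only call in any fit of resistant 27 h against 0. It came from the fit with array quality weights (1.25; limma adjusted p = 0.0181).

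LOC102601464 had 0.64, 0.76, 0.09 and 0.42, a mean of 0.48 ± 0.29 (n = 4; limma adjusted p = 0.476). All 4 values were positive, and the mean on the other 26 arrays was 0.08. The mean was 0.43 without replicate 1 and 0.16 with its sign turned. LOC102585585 had -0.62 on replicate 1, -1.02 on replicate 2 and -0.77 on replicate 4, with no value on replicate 3, and a mean of -0.80 ± 0.20 (n = 3; limma adjusted p = 0.754). Its sign was the opposite of that on most other arrays, where it was positive on 19 of 23 with a mean of 0.29. In sun1-1 leaves at 27 h, however, it had -1.32, 0.16 and 0.04, a mean of -0.37 ± 0.82. The difference between resistant and sun1-1 leaves at 27 h was -0.43 (SE 0.41; limma adjusted p = 0.837). Its resistant 27 h mean was -0.895 without replicate 1 and -0.39 with the sign of that array turned. LOC102593763 had -0.36, -0.76, -0.14 and -0.37, negative on all 4, with a mean of -0.41 ± 0.26, which was -0.42 without replicate 1 and -0.23 with its sign turned.

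LOC102601763 had 0.21, 0.49, 0.32 and 0.17, the narrowest spread among the top genes on all 4 arrays (mean 0.30 ± 0.14). LOC102586657 had 0.04, 0.91, 0.66 and 0.29 (mean 0.47 ± 0.39), and PK, for pyruvate kinase, the last enzyme of glycolysis, had 0.08, 0.87, 0.14 and 0.51 (mean 0.40 ± 0.37). All 3 genes were positive on each array, and LOC102586657 and PK were near 0 on replicate 1. LOC102577684 had 0.02, 1.04 and 0.83 on replicates 1, 2 and 4, with none on replicate 3. PEST2 had 0.36, 0.58, -0.14 and 1.10 (mean 0.48 ± 0.51), and LOC102593050 had -0.51, -0.38, 0.03 and -0.62 (mean -0.37 ± 0.29). In both, replicate 3 alone had the other sign. With the sign of replicate 1 turned, the means were 0.29 for PEST2, -0.12 for LOC102593050, 0.19 for LOC102601763, 0.46 for LOC102586657 and 0.36 for PK, and without replicate 1 they were 0.51, -0.32, 0.33, 0.62 and 0.50. Without replicate 4, PEST2 averaged 0.27.

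A pair of the top genes rested on replicate 2. LOC102581808 had -2.43 there, -0.03 on replicate 3 and -0.24 on replicate 4, so that its mean of -0.90 became -0.14 without replicate 2. LOC102603839 had 0.09, -2.0, -0.30 and -0.20, and its mean of -0.60 likewise became -0.14. Only 1 of its 2 clones had a value on replicate 2, and that clone averaged -0.72. The other clone read 0.09, -0.09 and 0.07 on replicates 1, 3 and 4. Of these 12 genes, all had a limma adjusted p of 0.476 or 0.754. The set was not stable either. With the sign of replicate 1 turned, 1 of the 12 stayed among the 12 smallest p, and THF1, for a protein of thylakoid formation, came first (mean -0.59; limma adjusted p = 0.164). Without replicate 1, 4 of the 12 stayed, and without replicate 2, 5 did. LOC symbols are given with no role because no name came with them.

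**Figure D3:**
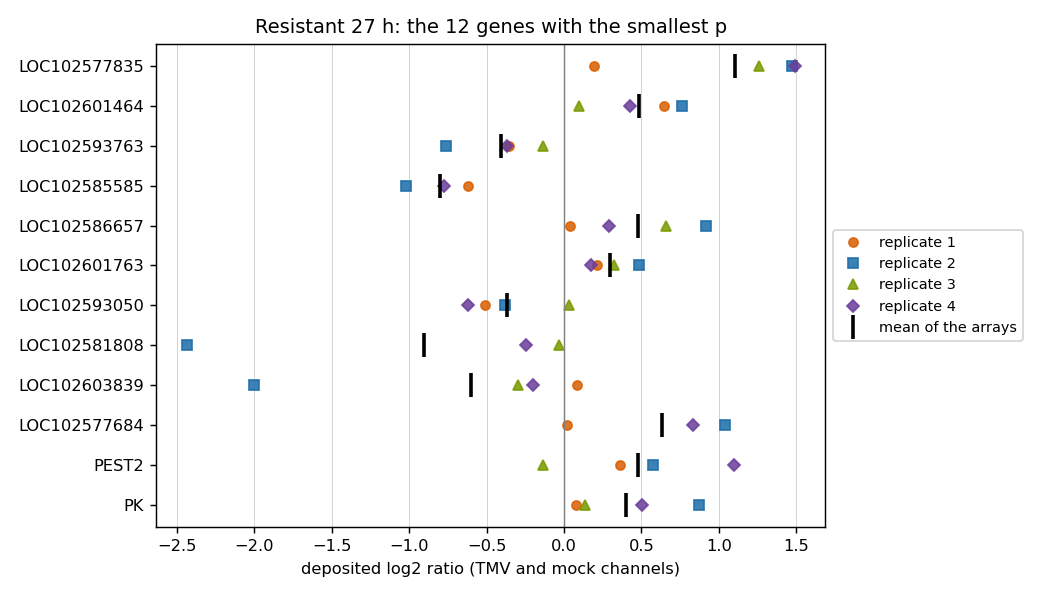
Deposited log2 ratios of the 12 genes with the smallest p at resistant 27 h, by array (coloured symbols) with the mean of the arrays (black bar). LOC102577835 sits above 1 on 3 arrays and at 0.19 on replicate 1, while LOC102581808 and LOC102603839 have a single low value on replicate 2.

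Clones with no symbol gave the smallest p over all clones. The clone on spot 145376 had 0.63, 0.49, 0.51 and 0.47 (mean 0.52 ± 0.07), the one on 132191 had -0.61, -0.81, -0.62 and -0.51 (mean -0.64 ± 0.12), and the one on 141972 had 0.24, 1.91, 0.66 and 1.56 (mean 1.09 ± 0.77). The first and second were alike on all 4 arrays. The clone on 159881 had 0.22, 0.59, 0.72 and 1.12, and that on 152882 had 0.57, 0.37 and 0.81 on replicates 1, 2 and 4. The limma adjusted p was 0.843 for each of these 5 clones. On the other arrays, clone 145376 averaged 0.05 and was positive on 14 of 23, and clone 132191 averaged -0.17 and was negative on 18 of 23.

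Genes of known function were read in 10 lists, which hold 43 symbols on the array. Of these, 37 had values on at least 2 of the 4 arrays, and 0 of 37 were called, against 0 of 368 genes overall (0%). The mean was positive for 23 and negative for 14, with a median of 0.03, the same to 2 decimals as over all 368 genes (207 positive and 161 negative). The 6 others could not be tested, as AOX, GPI and RANGAP2 had a value on 1 of the 4 arrays and CBL, SUT2 and CDPK1 on none. PK and SKT3 were positive on all 4 arrays, and 0 of the 37 were negative on all 4.

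The defence list held 4 genes, and 0 were called. PR1B, of the PR-1 family that serves as a marker of salicylic acid signalling, had 0.69, 0.08, 1.55 and -0.57, a mean of 0.44 ± 0.90 (limma adjusted p = 0.977). Its 2 clones had the same order of arrays. Single arrays set the mean, which was 0.07 without replicate 3, 0.78 without replicate 4, 0.36 without replicate 1 and 0.09 with the sign of replicate 1 turned. STWRKY8, a WRKY transcription factor, had -0.96, -0.45, 0.22 and 0.06, a mean of -0.28 ± 0.53, negative on 2 arrays and positive on 2. Its mean was -0.06 without replicate 1, -0.40 without replicate 4 and 0.20 with the sign of replicate 1 turned, so its sign depends on that array. RSI5 had -0.36, 1.97 and 0.68 on replicates 1, 2 and 4, and its mean of 0.76 was 1.33 without replicate 1 and 0.16 without replicate 2. SRE1A had 0.03, 0.39, -0.22 and 0.32. None of the 4 kept a sign on all its arrays.

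Oxylipin and redox genes were close to 0 on average. HPL, hydroperoxide lyase, which makes leaf aldehydes from fatty acid hydroperoxides, had a mean of 0.04 ± 0.24. PPO, polyphenol oxidase, which browns wounded tissue, had -0.46, 0.54, 0.49 and -0.46, with replicates 1 and 4 low and replicates 2 and 3 high. The 4 tested redox genes had negative means, between -0.18 and -0.14, and 0 were called. They are CAT1, a catalase that breaks down hydrogen peroxide, DHAR and DHAR2, which regenerate ascorbate, and GRX2, a glutaredoxin. CAT1 had -0.18, -0.44, 0.36 and -0.45, and DHAR2 had 0.19, -0.41, -0.11 and -0.27, so a single array was positive in each, replicate 3 in the first and replicate 1 in the second. The 3 clones of CAT1 differed, with means of -0.20, -0.46 and 0.125. On replicate 1 they read -0.30, -0.70 and 0.46, which leaves the gene value uncertain. DHAR averaged 0.10 with the sign of replicate 1 turned and GRX2 0.08 without replicate 2, so their sign turns on those arrays.

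The flavonoid genes were split. F3H, flavanone 3-hydroxylase, had -0.74, 0.43, 1.08 and 0.38 (mean 0.29 ± 0.76), and FLS, flavonol synthase, had 0.22, -0.39, -0.12 and -0.22 (mean -0.13 ± 0.25). In both genes replicate 1 alone had the opposite sign. With that sign turned, F3H averaged 0.66 and FLS -0.24, and without replicate 1 they averaged 0.63 and -0.24. F3H averaged 0.03 without replicate 3. The 4 clones of FLS differed on replicate 1, from -0.62 to 1.08, and such a spread within a symbol leaves its mean uncertain.

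Of the carbon genes, 7 were tested and 0 were called. GAPDH, a glycolytic dehydrogenase spotted as 8 clones, had 0.31, 0.57, 0.03 and -0.05, a mean of 0.22 ± 0.28 (limma adjusted p = 0.872). The means of all 8 clones were positive, from 0.01 to 0.31. PGAM, phosphoglycerate mutase, had -0.05, 0.58, -0.04 and 0.28, and the low and high arrays were those of PK. GBSS, the granule-bound starch synthase that makes amylose, had 0.35, -1.41, 0.30 and 0.21, positive on 3 arrays and far below on replicate 2. Both of its clones showed this, at -1.27 and -1.56 on replicate 2. The GBSS mean of -0.14 was 0.29 without that array and -0.32 with the sign of replicate 1 turned. TK, transketolase of the Calvin cycle and pentose phosphate pathway, had 0.38, -0.09, -0.52 and 0.06. PDHE1-A, a subunit of pyruvate dehydrogenase, lay between -0.02 and 0.08. PAIN-1, a vacuolar invertase that splits sucrose, had -0.27 and -0.41 on replicates 1 and 2.

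Of the genes of S-adenosylmethionine metabolism, which feeds methylation, ethylene and polyamines, 4 were tested and 0 were called. METK1, S-adenosylmethionine synthase, spotted as 9 clones, had -0.51, 0.04, 0.04 and 0.50, a mean of 0.02 ± 0.41. MS, methionine synthase, spotted as 5 clones, had -0.37, 0.14, -0.10 and 0.53. In METK1 and MS, replicate 1 was lowest and replicate 4 highest, 1.01 apart for METK1, and neither mean passed the test (limma adjusted p = 0.987 and 0.978). All 9 METK1 clones were negative on replicate 1, and 8 of the 9 were positive on replicate 4. SHMT had -0.02, -0.34 and -0.15 on replicates 1, 3 and 4, and ARD had 0.11, 0.13, 0.45 and -0.09, so neither had that order. METK1 averaged -0.14 and MS -0.11 without replicate 4, and 0.27 and 0.24 with the sign of replicate 1 turned.

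Both chloroplast genes were opposed between replicates 1 and 2. PSBR, a subunit of photosystem II, had 0.53, -1.25, 0.03 and -0.07 (mean -0.19 ± 0.75). The 3 PSBR clones with values on all 4 arrays read 0.61, 0.78 and 1.16 on replicate 1 and -0.94, -1.34 and -1.47 on replicate 2. The other 3 had no value on replicate 2 and read 0.73, -0.04 and -0.07 on replicate 1, so the PSBR clones differed on that array, and all 6 enter its gene value of 0.53. THF1 had 0.86, -0.77, 0.02 and -0.73 (mean -0.15 ± 0.77). Replicates 2 and 4 were low in THF1, whereas replicate 2 alone was low in PSBR. The mean of PSBR was 0.16 without replicate 2 and -0.46 with the sign of replicate 1 turned, and that of THF1 was 0.05 without replicate 2 and 0.04 without replicate 4.

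Among transport genes, SKT3, a potassium channel, had 0.29, 0.39, 0.80 and 0.18, all positive, with a mean of 0.42 ± 0.27 (limma adjusted p = 0.754). KST1, another potassium channel, averaged 0.12 ± 0.23. The plasma membrane proton pumps PHA1 and PHA2 averaged 0.04 ± 0.13 and 0.20 ± 0.49, and PHA2 had -0.33, 0.86, 0.06 and 0.21. The 3 tested PHA2 clones read 0.85, 0.66 and 1.07 on replicate 2 and -0.30, -0.26 and -0.41 on replicate 1. VPE2, a vacuolar processing enzyme of the kind that acts as a caspase-like protease in TMV-induced cell death of tobacco, had -0.10, -0.22, 0.66 and -0.18.

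The signalling genes were chosen after their values were seen, and CO alone among them had a wide range, the widest of the listed genes. CO, of the CONSTANS family of day-length regulators, had 1.06, -1.89, -0.15 and -0.41 (mean -0.35 ± 1.21). Its mean was 0.17 without replicate 2, -0.82 without replicate 1 and -0.88 with the sign of replicate 1 turned. ERS, an ethylene receptor, had 0.40, -0.36, 0.42 and 0.01. CDPK2, a calcium-dependent protein kinase, BEL5, a homeodomain transcription factor, RANGAP1, a Ran GTPase-activating protein of the family that binds disease resistance receptors, and the auxin regulators IAA2 and IAA3 had means between -0.04 and 0.17. With the sign of replicate 1 turned, ERS averaged -0.08 (0.12 as deposited), RANGAP1 -0.03 (0.01) and IAA3 -0.09 (0.17). None of the 7 signalling genes was called.

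**Figure D4:**
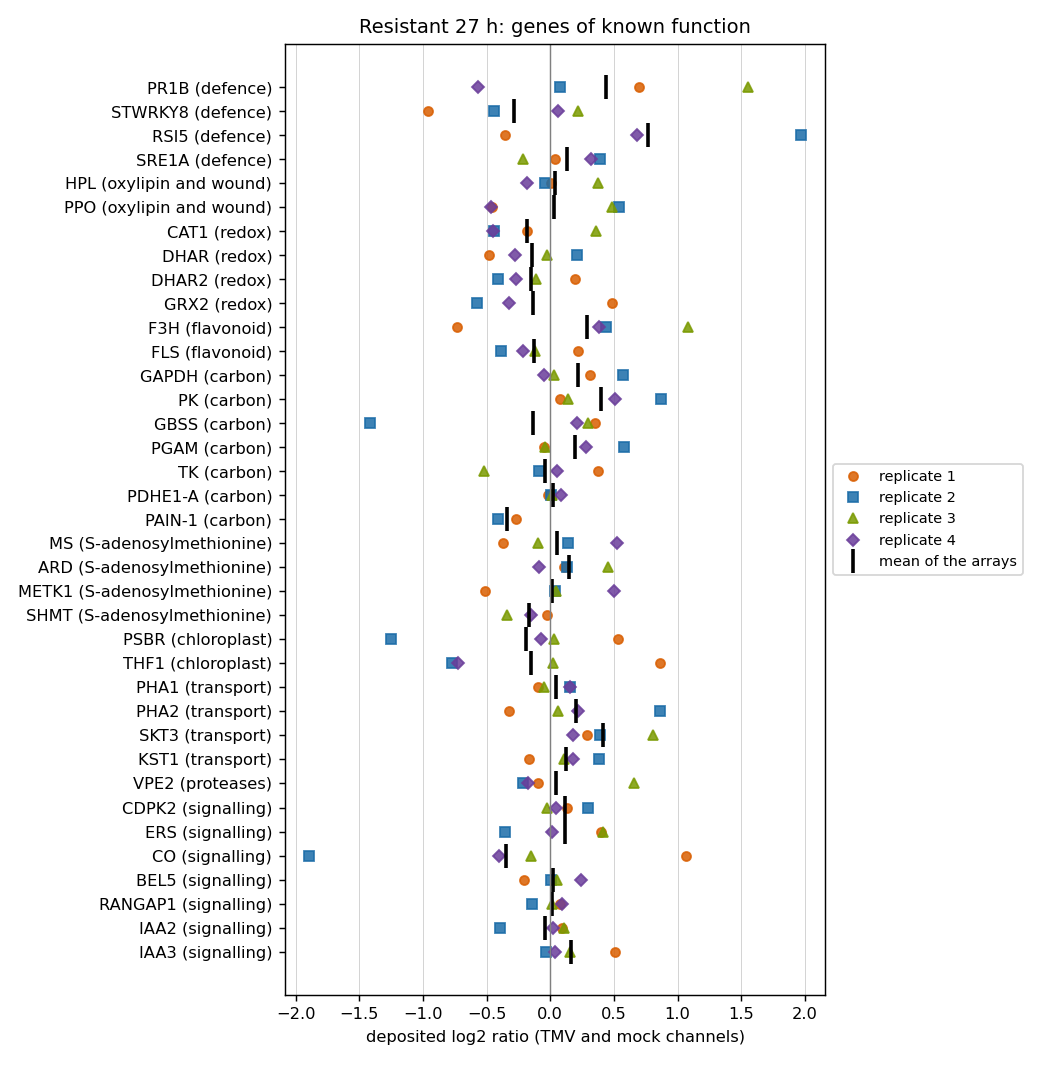
Deposited log2 ratios at resistant 27 h of the 37 tested genes of known function, with the list of each in brackets, by array (coloured symbols) and as the mean (black bar). PK and SKT3 are the only genes with 4 positive values, and CO, PSBR and GBSS lie furthest below 0 on replicate 2.

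The opposition of replicates 1 and 2 was then read gene by gene. They were 2-fold or more apart in 84 of 357 genes (23.5%), with replicate 1 the higher in 37 and replicate 2 in 47, and their signs were opposite in 82 of the 84. Replicate 4 had a value for 76 of these genes, with the sign of replicate 2 in 60 and that of replicate 1 in 18, counts that share the genes in which replicates 1 and 2 had the same sign. Replicates 2 and 4 were 2-fold or more apart in 21 of 317 genes. Of the 84 genes, 12 have a symbol other than LOC. Replicate 1 was higher in CO, IPMK (0.64 on replicate 1 and -2.22 on replicate 2), PSBR, GBSS, THF1 and GRX2. Replicate 2 was higher in RSI5, NDPK1 (-0.57 and 0.63), PHA2, F3H, SS16 and PURM. NDPK1 denotes a nucleoside diphosphate kinase, and PURM an enzyme of purine synthesis. These genes were picked by that difference, so it is a description and has no test.

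The 5 genes with the widest range over the 4 arrays were all among these 84. LOC102588954 had 1.97, -1.59, 0.07 and -0.67, and its 2 clones read 2.04 and 1.91 on replicate 1 and -1.47 and -1.71 on replicate 2. LOC102585483 had 1.04, -2.06, 0.08 and -1.47, and LOC102591911 had 0.69, -2.40, -0.54 and -0.42. CO also belonged here. LOC102606273 had 0.08, -1.30, 0.73 and 1.63, with replicate 4 its highest. With the sign of replicate 1 turned, LOC102588954 averaged -1.04, LOC102585483 -1.12 and LOC102591911 -1.01, against -0.06, -0.60 and -0.67 as deposited. Genes here were picked by their range, and replicate 1 was the highest array in all 3. A mean further from 0 on turning therefore follows from that choice and is no test of the sign. The median range over the 250 genes on all 4 arrays was 0.67.

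The next comparisons set resistant 27 h beside other groups, in which a constant dye effect of a clone cancels. Against susceptible leaves at 27 h, 0 of 5914 clones (0%) were called and 357 (6.04%) had an unadjusted p under 0.05. The gene fit called 0 of 347 genes, and 13 (3.75%) were under 0.05 unadjusted. LOC102601763 came first, with 0.21, 0.49, 0.32 and 0.17 in resistant leaves and -0.23, -0.33 and -0.52 in susceptible leaves. The groups did not overlap, and the difference was 0.66 (SE 0.17; limma adjusted p = 0.325), or 0.55 with the sign of replicate 1 turned and 0.69 without it. In sun1-1 leaves at 27 h this gene had 0.23, 0.32 and 0.18, so the difference between resistant and sun1-1 leaves was 0.05 (limma adjusted p = 0.950). LOC102596498 had 0.19, 0.44 and 0.28 in resistant leaves on replicates 2, 3 and 4, and -0.96, -0.32 and -0.30 in susceptible leaves (difference 0.83; limma adjusted p = 0.986). LOC102584168 averaged 0.29 ± 0.36 in resistant leaves (n = 3) and -0.27 ± 0.21 in susceptible leaves (n = 3), and its groups overlapped. PR1B differed by 0.58 between resistant and susceptible leaves, with an SE of 0.71.

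Against sun1-1 leaves at 27 h, 0 of 6344 clones (0%) were called, with 334 (5.26%) under 0.05 unadjusted, and 0 of 351 genes, with 20 (5.7%). LOC102596783 had -0.01, -0.07, 0.07 and 0.10 in resistant leaves and 2.18 and 0.29 in sun1-1 leaves, so the difference of -1.21 (SE 0.37; limma adjusted p = 0.750) rested on a single sun1-1 array. LOC102581985 averaged 0.16 ± 0.49 in resistant leaves and 1.01 ± 0.49 in sun1-1 leaves, a difference of -0.84, and its groups overlapped. The difference was -0.61 without replicate 1 and -0.58 with its sign turned. LOC102577854 had 0.03, -0.32 and -0.01 in resistant leaves and 0.92, 0.44 and 0.64 in sun1-1 leaves, without overlap (difference -0.77; limma adjusted p = 0.750). CAT1 followed, with -0.18, -0.44, 0.36 and -0.45 in resistant leaves and 0.88, 0.30 and 0.14 in sun1-1 leaves, and the groups overlapped. Its difference was -0.62 (SE 0.25; limma adjusted p = 0.750), and the CAT1 clones differed in resistant leaves, as given above.

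Against the mean of resistant leaves at 3 h and 9 h, 0 of 5004 clones (0%) were called, with 265 (5.3%) under 0.05 unadjusted, and 0 of 320 genes, with 21 (6.56%). LOC102594491 averaged 0.31 ± 0.21 at 3 h, 0.94 ± 0.27 at 9 h and -0.23 ± 0.37 at 27 h, a difference of -0.85 (SE 0.23; limma adjusted p = 0.417). PEST2 averaged -0.40 ± 0.18 at 3 h, -0.22 ± 0.58 at 9 h and 0.48 ± 0.51 at 27 h, a difference of 0.79 (limma adjusted p = 0.573). LOC102585585 averaged 0.32 ± 0.70 at 3 h, 0.17 ± 0.33 at 9 h and -0.80 ± 0.20 at 27 h, with no overlap between 27 h and the earlier times, and a difference of -1.05 that was -0.64 with the sign of replicate 1 turned. The difference of PEST2 was 0.60 with that sign turned and 0.58 without replicate 4. STWRKY8 had means of 0.75 ± 0.80 at 3 h, 0.56 ± 0.26 at 9 h and -0.28 ± 0.53 at 27 h, and the difference of -0.94 (SE 0.35) had a limma adjusted p of 0.620. It was -0.46 with the sign of replicate 1 turned. PR1B averaged 0.11 ± 0.63 at 3 h, 1.21 ± 2.47 at 9 h and 0.44 ± 0.90 at 27 h, and the values of the 3 times overlapped widely.

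Against the mean of the 8 other groups, 0 of 6341 clones (0%) were called, with 219 (3.45%) under 0.05 unadjusted, and 0 of 359 genes, with 15 (4.18%). LOC102585585 had the smallest p, with a difference of -1.09 (SE 0.31; limma adjusted p = 0.690), which was -1.18 without replicate 1 and -0.68 with its sign turned. Among the other groups, sun1-1 27 h also had a negative mean for this gene (-0.37). The difference for PK was 0.48 (SE 0.18; limma adjusted p = 0.962), and PK averaged -0.09 on the other 26 arrays, where it was positive on 10. The difference of LOC102581808, -1.03, rested on replicate 2 as above. All comparisons share the 4 resistant 27 h arrays, and the last of them shares arrays with the 3 before it, so they are not separate evidence. P-values measure the spread between arrays, each of which holds a pair of single plants.

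**Figure D5:**
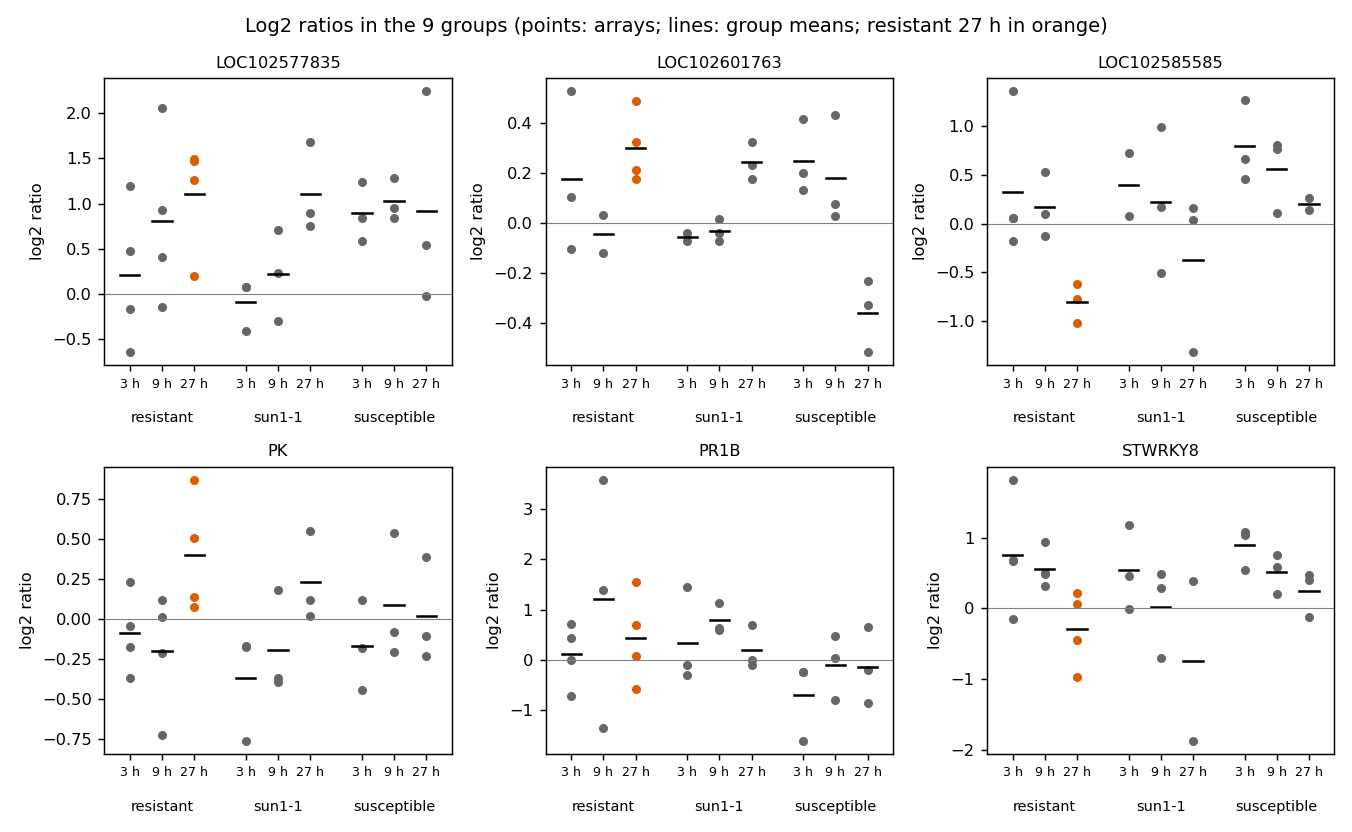
Deposited log2 ratios of 6 genes in the 9 groups, by genotype and by time after treatment in h. Points are arrays, black lines are group means, and resistant 27 h is in orange. LOC102601763 is above 0 in resistant and sun1-1 leaves at 27 h and below 0 in susceptible leaves at 27 h, and LOC102585585 is below the other resistant arrays at 27 h.

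Clones of a symbol were also compared by their means over the 4 arrays. Of 158 symbols with several tested clones, 103 had clone means of a single sign, and of the 36 symbols with at least 4 clones, 16 did. The share to be met by chance was not computed. Both clones of GBSS and both of LOC102588954 read alike on each array, so that their values differed more between arrays than between clones. By contrast, CAT1, FLS, PSBR and METK1 had clone means of both signs.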

How the data were processed

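Each array compared a TMV sample (Cy3) with a mock sample (Cy5) of leaf RNA. The authors deposited a log2 ratio per spot, centred on about 0 and with empty cells. The submitters' processing notes name limma, and the scanner, background correction, normalization and filter are not given in the sources used here. No scanner files were used, so neither depth nor signal over background is known, and the number of arrays limits the precision.

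Duplicate spots were averaged by the array's fixed layout (15360 clones), which the 905 annotated pairs all follow. Sun1-1 27 h replicate 2 lay 1 row out of register and was moved back, which took its mean absolute correlation with the rest of the arrays to 0.172, against 0.0115 unmoved. With R 4.3.3 and limma 3.58.1, 9 group means were fitted over all 30 arrays (lmFit, eBayes), with a common spread per clone or gene. Resistant 27 h was tested against 0 and against other groups, in clones with values on at least 2 arrays of each group compared (at least 1 in each group of the 8-group mean), and again with clones of a symbol averaged into genes. Benjamini-Hochberg adjustment ran over all features of a comparison, with a threshold of 0.05. The fits were tested on simulated data. SD is over arrays, and SE is limma's.

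Named are the 12 genes and 5 unnamed clones with the smallest p, members of gene lists, the 3 genes with the smallest p in each difference and the 5 of widest range. A gene list took symbols by a fixed wording, and PGAM, TK, PDHE1-A, PAIN-1, GPI, METK1, SHMT, CBL and the signalling list were added after their values were seen, as were IPMK, NDPK1, SS16 and PURM. The group, lists and tests were chosen with earlier results of these data known. Symbols are those of the platform annotation, and 0 of their 430 gene identifiers matched the tomato gene table, so roles are those of the symbol. How well the clones match tomato transcripts was not tested, and this limits every value. Alternatives covered normalization, spread, filters, the arrays in the fit and each replicate left out. The turned sign of replicate 1 and the removal of resistant 9 h replicate 4 were added after seeing the data.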

Additional observations from a re-analysis of the deposited data

Results flagged for a closer look

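Of 58 named genes, 48 had values on all 4 resistant 27 h arrays, and 2 of these had a single array far from the others by Dixon's criterion, which chance meets in about 1 of 20 genes. GBSS, a starch synthase, had -1.41 on replicate 2, against 0.35, 0.30 and 0.21 on the others, and both of its clones were low there. VPE2, a vacuolar processing enzyme, had 0.66 (0.655) on replicate 3, against -0.10, -0.22 and -0.18. The clone of VPE2 measured on all 4 arrays had 0.22, -0.22, 0.66 and -0.18, so its value on replicate 1 differed from that of the gene.

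For 2 of the named genes every measured resistant 27 h array was positive and every susceptible 27 h array negative. Both are among the 3 genes with the smallest p in that difference, so their separation is no further evidence. The share of such genes among all 347 tested was not counted. LOC102601763 had 0.17 to 0.49 in resistant leaves and -0.52 to -0.23 in susceptible leaves, and the difference of 0.66 had a limma adjusted p of 0.325. LOC102596498 differed by 0.83, over 3 arrays in resistant leaves and 3 in susceptible leaves, with a limma adjusted p of 0.986. Neither difference passed the test.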

How the results depend on the processing

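The adjusted limma test called 0 clones against 0 under all 18 settings, main included, with 139 to 893 clones under 0.05 before adjustment and no adjusted p below 0.105. It called 0 genes except with array quality weights, where it called 1, LOC102577835, and the cause was not tested. The 4 differences between groups gave 0 clones under every setting run (16 to 19 settings each, lowest adjusted p 0.0845). With a replicate left out, the counts stayed at 0, and the mean correlation of the arrays ran from -0.0402 to 0.326. Without replicate 4, 0 clones of 6587 and 0 genes of 364 were called. The reported tests had no block. With the replicate number as a block (replicate block) the count was 0 for clones and 0 for genes. The numbers were not taken as pairs, since deviations of same-numbered arrays correlated at -0.532 to 0.588 and only 2 of the 4 arrays correlated best with their own number. Turning the sign of replicate 1 gave -0.07 for PAIN-1, against -0.34, and -0.09 for IAA3, against 0.17. These 2 moved by more than the SD of their arrays. So did LOC102585585 (-0.39, against -0.80, SD 0.20) and LOC102601464 (0.16, against 0.48, SD 0.29). No gene was called as deposited, so no call could change sign, but the uncalled mean of 23 of the 58 named genes took the opposite sign under some alternative, 10 of them without replicate 2, 8 without replicate 4, 5 with replicate 1 turned, 4 without replicate 3 and 1 without replicate 1. The fit to the compared arrays alone could not be run for the mean of the 8 other groups, which uses all 30. With 4 arrays an exact sign-flip permutation test cannot go below p = 0.125. Empty cells left 6427 of 15360 clones unmeasured.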
